A study of Gossypium hirsutum with 3 samples.

Results

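The genes listed on chromosomes A04, A05, D04 and D05 of allotetraploid cotton, Gossypium hirsutum, were described by their transcript levels in leaf. They were taken by the chromosome name in the gene identifier, which gave 11499 of the 70478 listed genes: 1491 on A04, 4026 on A05, 2040 on D04 and 3942 on D05. RNA-seq had been done on leaves of 20-day-old greenhouse plants of the cultivar TM-1 in 3 replicate libraries of the same untreated condition, so the design holds a comparison between subgenomes and none between treatments. The values are FPKM, which count the sequenced fragments of a gene relative to its exon length and to the mapped fragments of the library, and which can be compared between genes for that reason. The labels do not say whether the libraries came from separate plants, so the SDs below measure the spread between these libraries and it may be technical. RNA was taken from whole leaves, in which fewer cells of a type and less RNA per cell cannot be told apart. The identifiers carry no gene names here, and the leaf was therefore not checked against marker genes.

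Cotton is an allotetraploid: its nucleus carries an A subgenome from an African or Asian diploid cotton and a D subgenome from an American one. Most genes therefore exist as a pair of homeologs, one in each subgenome, usually in the same order along chromosomes of the same number. The chromosomes numbered 04 and 05 are a known exception, because chromosomes A04 and A05 exchanged arms in the A lineage, so that part of A05 matches D04 and part of A04 matches D05. The question here was how leaf transcription is spread along these chromosomes, how the A pair differs from the D pair, and whether the exchange can be followed in the levels alone.

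A05 had the larger share of expressed genes and A04 the smaller. Counting genes with an FPKM of at least 1, the threshold used in the study, 63.1%, 63.4% and 61.7% of A05 genes were expressed in replicates 1, 2 and 3, against 60.1%, 60.5% and 59.0% on D05, 56.2%, 57.1% and 55.7% on D04 and 56.3%, 56.5% and 54.5% on A04. A05 lay above the other 3 chromosomes and D05 above D04 and A04 in all libraries, whereas the values of A04 and D04 overlapped. Among all 26 chromosomes A05 ranked 3 by this share, D05 ranked 13, D04 ranked 24 and A04 ranked 25. The mean log2(FPKM + 1) over listed genes was 2.10 ± 0.04 (SD, n = 3) on A05, 2.02 ± 0.03 on D05, 1.92 ± 0.03 on A04 and 1.88 ± 0.04 on D04. In this order too the libraries of A04 and D04 overlapped and those of the other neighbours did not, A05 and D05 by a narrow margin. Replicate 3 had the lowest level on all 26 chromosomes, these 4 among them. The median FPKM of a gene was 2.70 on A05, 2.33 on D05, 1.79 on D04 and 1.76 on A04. Genes listed at 0 in all libraries made up 13.7% of A05, 16.4% of D05, 18.1% of D04 and 19.4% of A04. Of all listed genes, those on no chromosome included, 18.3% were listed so. That share is not one of chromosomes alone, so D04 and D05 are not read as low against it.

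**Figure D1:**
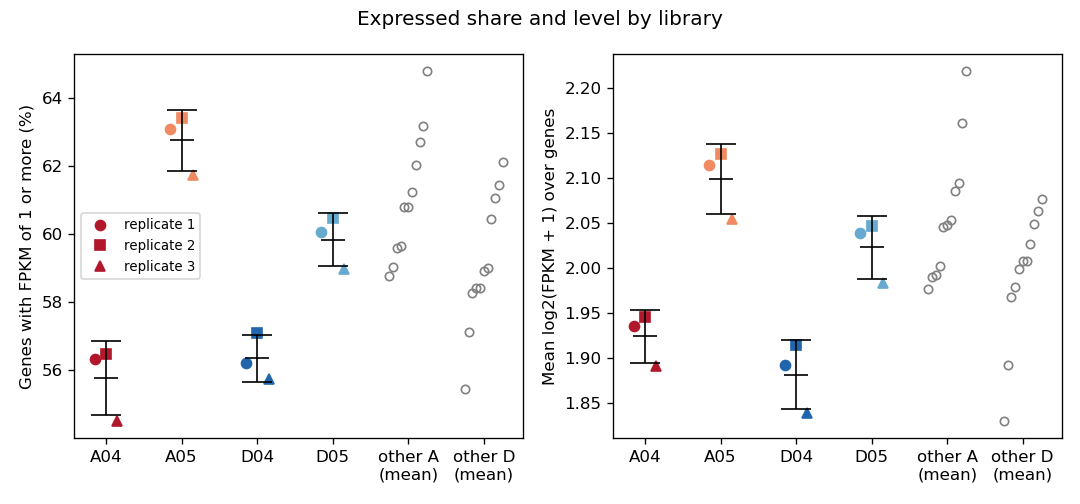
Share of genes with an FPKM of at least 1 (left, percent, axis not from 0) and mean log2(FPKM + 1) over listed genes (right) on A04, A05, D04 and D05. Coloured points are the 3 libraries and bars their mean ± SD. Open circles are the library means of the other 22 chromosomes. A05 stands above D05, and both above A04 and D04, whose points overlap in the left panel.

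Taken as pairs, A04 plus A05 had a larger expressed share than D04 plus D05, while D04 plus D05 held more expressed genes. In the A pair 3372 of 5517 genes had a mean FPKM of at least 1 and in the D pair 3515 of 5982. Of all listed genes, those on no chromosome included, 58.0% passed, and of genes on the other 22 chromosomes 60.4%. D04 and D05 together listed 465 genes more than A04 and A05, a surplus made up of 143 expressed and 322 unexpressed genes. Such a surplus was not particular to these chromosomes. On the other chromosome numbers together the D side listed 1905 genes more, 560 expressed and 1345 unexpressed. The share was 61.3%, 61.5% and 59.8% in the A pair and 58.8%, 59.3% and 57.9% in the D pair in replicates 1, 2 and 3. The A pair was thus higher by 2.51, 2.21 and 1.92 percentage points within the libraries, 2.21 ± 0.29 on average (SD, n = 3). The mean log2(FPKM + 1) was higher in the A pair by 0.077 ± 0.001, again in 3 of 3 libraries. For both measures an exact two-sided sign-flip permutation test over the libraries gave p = 0.25, the smallest p that 3 libraries allow, so neither difference could pass a threshold of 0.05.

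The difference in level was smaller among expressed genes. With only the genes of mean FPKM of at least 1 in both pairs, the A pair exceeded the D pair by 0.0078 on the log2 scale, and with a pseudocount of 0.1 in place of 1 the difference over listed genes was 0.14. FPKM of at least 10 were reached by 1297 genes of the A pair and 1350 of the D pair. These made up 23.8% of A05, 23.2% of D05, 22.7% of A04 and 21.3% of D04. Of all listed genes, those on no chromosome included, 21.9% reached this level. On the other chromosome numbers 6215 of 26515 A genes and 6385 of 28420 D genes did. By chromosome number the share differed on 05 and not clearly on 04. On 05 the A chromosome was higher by 2.91 ± 0.13 percentage points in 3 of 3 libraries, and on 04 it was lower by 0.58 ± 0.66 on average and higher in 1 of 3. The mean level was higher on the A chromosome in 3 of 3 libraries for both numbers, by 0.042 ± 0.010 on 04 and 0.076 ± 0.004 on 05. The exchange of arms makes such a comparison by number one of partly different genes. The other 11 chromosome numbers together had an A minus D difference of 2.05 ± 0.09 percentage points, and numbers 02 plus 03, which are also joined by an exchange, one of 2.33 ± 0.16, values close in size to that of 04 plus 05.

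Along the chromosomes, expression was densest in the first part of A05 and D05 and thinnest near the end of D05. In windows of 100 consecutive genes, the share with a mean FPKM of at least 1 ran from 42% to 77% on A05, from 27% to 77% on D05, from 41% to 68% on A04 and from 41% to 68% on D04. The medians over windows were 64% on A05 and D05, 58% on D04 and 56% on A04. The SD between windows in the mean log2(FPKM + 1) was 0.31 on A05, 0.42 on D05, 0.29 on A04 and 0.26 on D04, whereas the SD of a window over the 3 libraries had a median of 0.04 on D04, D05 and A05 and 0.03 on A04.

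**Figure D2:**
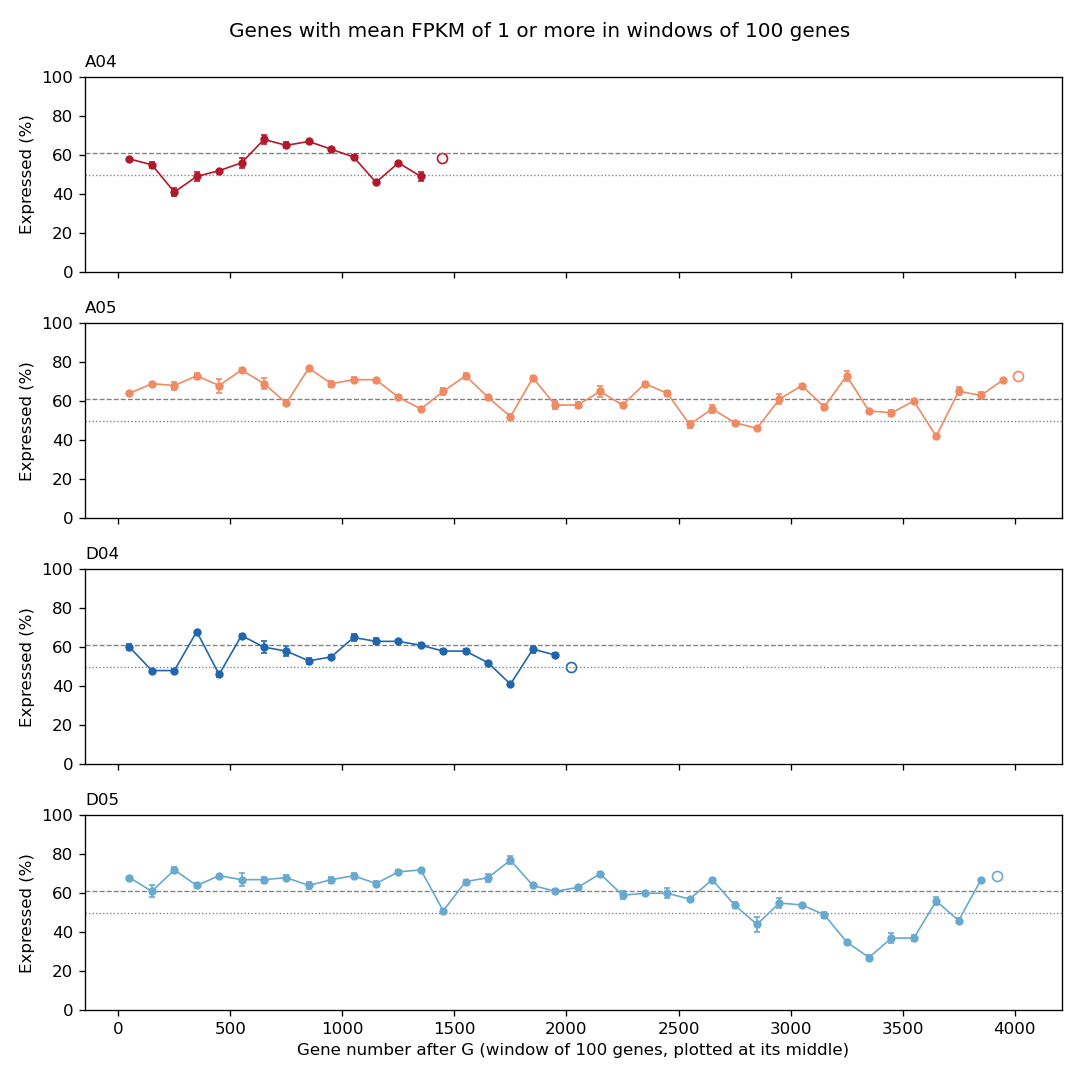
Percent of genes with a mean FPKM of at least 1 in windows of 100 genes, plotted at the middle gene number of each window on A04, A05, D04 and D05. Bars are SDs of the share over the 3 libraries, open circles are shorter last windows, the dashed line is the median window of the other 22 chromosomes (61%) and the dotted line is 50%. The lowest stretch is on D05 from Gh_D05G3201 to Gh_D05G3600.

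Windows with fewer than 50% of genes expressed numbered 4 of 15 on A04, 4 of 41 on A05, 4 of 21 on D04 and 7 of 40 on D05. This was 14.3% of the A windows and 18.0% of the D windows, with 10.2% over the 26 chromosomes. Near that line small changes matter: without replicate 3 the share of A windows was 8.93%. The deepest was a stretch of 4 adjoining windows on D05, from Gh_D05G3201 to Gh_D05G3600, with 35%, 27%, 37% and 37% of genes expressed. Its lowest window, Gh_D05G3301 to Gh_D05G3400, had a mean log2(FPKM + 1) of 1.07, 1.09 and 1.01 in replicates 1, 2 and 3, and 34 of its 100 genes were listed at 0 in all libraries. The stretch was not without transcripts. The window from Gh_D05G3401 to Gh_D05G3500 held 15 genes with a mean FPKM of at least 10. Beyond it the share was higher, 56% in the window from Gh_D05G3601, 46% in that from Gh_D05G3701 and 67% in that from Gh_D05G3801.

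The low windows of the other 3 chromosomes were less deep. On D04 the lowest was Gh_D04G1701 to Gh_D04G1800, where 41 genes were expressed and 39 were listed at 0 in all libraries, and 3 windows between Gh_D04G0101 and Gh_D04G0500 had 48, 48 and 46 expressed genes. On A04 it was Gh_A04G0201 to Gh_A04G0300 with 41 expressed genes, adjoined by Gh_A04G0301 to Gh_A04G0400 with 49. Also low on A04 were Gh_A04G1101 to Gh_A04G1200 with 46 and Gh_A04G1301 to Gh_A04G1400 with 49. The latter holds scaffold genes without a known position. On A05 the lowest was Gh_A05G3601 to Gh_A05G3700 with 42, mostly scaffold genes too. Another group of low windows lay between Gh_A05G2501 and Gh_A05G2900, with 48, 56, 49 and 46 expressed genes in order. Windows with at least 70% of genes expressed were found on A05, 10 of 41, and on D05, 5 of 40, but not on A04 or D04. Over the 26 chromosomes 11.5% of windows reached that share. Those of A05 included Gh_A05G3901 to Gh_A05G4000, at 71%, and the last window, of 26 genes, at 73.1%, both of scaffold genes. The highest windows were Gh_A05G0801 to Gh_A05G0900 and Gh_D05G1701 to Gh_D05G1800, both at 77%, with mean log2(FPKM + 1) of 2.75 ± 0.04 and 2.69 ± 0.03 (SD, n = 3).

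With each chromosome cut into 4 blocks of equal gene number, the expressed share on D05 was 67.4% ± 1.3 (SD, n = 3) in the first block, 66.3% ± 0.48 in the one after it, 58.9% ± 0.86 in the next and 46.7% ± 0.71 in the last. The first 2 blocks did not differ beyond their spread, and each later block was lower than the one before. A05 began like D05, with 69.1% ± 1.2, 64.0% ± 0.70 and 57.5% ± 0.69 in its first 3 blocks, but ended at 60.4% ± 0.96. A04 and D04 were highest in the block after their middle, at 60.9% ± 0.56 and 61.5% ± 0.60, and lower at both ends. Gene numbers are not distances, and for A04 and A05 the last numbers belong to scaffolds assigned to the chromosome without a position. Those genes, 195 from Gh_A04G1297 and 408 from Gh_A05G3619, had expressed shares of 52.8% ± 1.4 and 61.0% ± 1.1, within 4 percentage points of those of the placed genes, 56.5% ± 1.0 and 63.1% ± 0.85.

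Long runs of neighbouring unexpressed genes were more frequent per gene on D05 and A04 than on A05 and D04, as a count without a test. Runs of at least 10 consecutive genes with a mean FPKM under 1 numbered 11 on D05, 4 on A04, 3 on A05 and 2 on D04, which is 2.79, 2.68, 0.75 and 0.98 per 1000 genes, against 1.06 per 1000 genes on the other 22 chromosomes. The order depended on this length. Runs of at least 5 genes numbered 16.7 per 1000 genes on D04, 15.4 on A04, 12.2 on D05 and 10.2 on A05. The other 22 chromosomes had 11.0. The 2 longest had 21 genes each and both lay near the end of D05, at Gh_D05G3364 to Gh_D05G3384 and Gh_D05G3572 to Gh_D05G3592. A run of equal length on D10 was the longest of the other 22 chromosomes. D10 had 9 runs of at least 10 genes, 3.40 per 1000, a higher rate than on D05 or A04. In the first of the D05 runs 13 genes were listed at 0 in all libraries and the highest mean FPKM was 0.29. It was bordered by Gh_D05G3363 with an FPKM of 38.1 and Gh_D05G3385 with 1.96, so that expressed and unexpressed genes stood directly side by side. Of the 11 runs on D05, 10 lay beyond Gh_D05G2841.

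The longest runs on A04 were Gh_A04G1105 to Gh_A04G1119 and Gh_A04G1306 to Gh_A04G1320, of 15 genes each. That on A05 was Gh_A05G3697 to Gh_A05G3710, of 14 genes. The latter of the A04 runs and the A05 run lie among scaffold genes, which are not shown to be neighbours, and without scaffold genes the A pair had 5 runs in place of 7. That on D04 was Gh_D04G1717 to Gh_D04G1731, of 15 genes, of which 14 were listed at 0 in all libraries, and a run of 13 genes began 15 genes further on, at Gh_D04G1746. The genes next to these runs could be high, as Gh_A05G3696 with an FPKM of 75.8 and Gh_D04G1745 with 35.9. Runs in which genes were listed at 0 in all libraries reached at least 10 genes once on A05, once on D04, 3 times on D05 and 0 times on A04. That is 0.43 per 1000 genes on the 4 chromosomes, against 0.20 on the other 22, which had 11 such runs. The longest here, on D04, had 13 genes, and a run on A11 had 17. What the genes in the runs of the 4 chromosomes encode was not looked up, because no annotation of these identifiers was at hand.

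**Figure D3:**
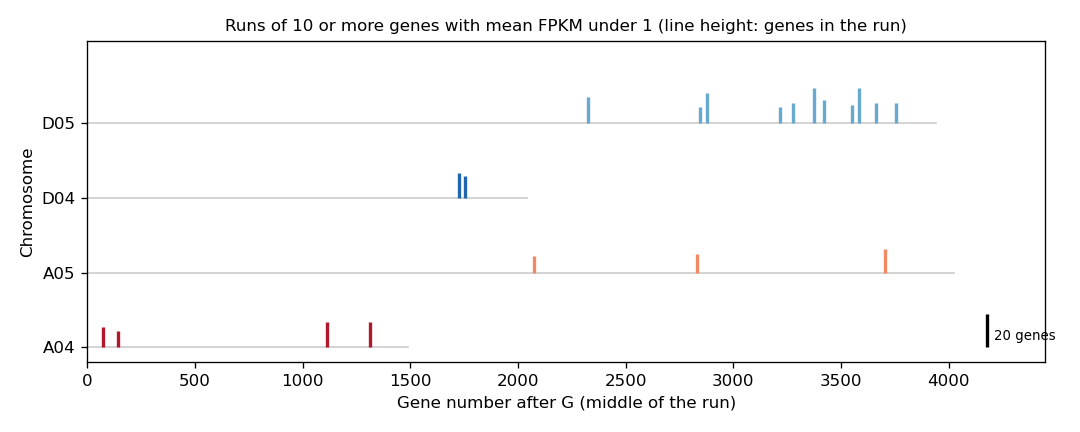
Runs of at least 10 consecutive genes with a mean FPKM under 1 along A04, A05, D04 and D05. Each vertical line stands at the middle gene number of a run and its height gives the number of genes in it (scale line: 20 genes). D05 carries 11 of the 20 runs, 10 of them from gene number 2842 on.

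No listed homeologs of these chromosomes were at hand. The order of leaf levels along the chromosomes was therefore used to see which stretches of A04 and A05 match which of D04 and D05. Genes were put into 8 level bins and the sequence of bins on A04 and A05 was aligned locally with that on the D chromosomes in both directions, with scores learned from listed homeologs of A01 and D01. Segments were kept when they scored above 32.2, the highest that A04 or A05 reached on a D chromosome other than D04 and D05. This left 7 segments, and all 4 combinations of the chromosomes were among them. Most of A05 matched D05: Gh_A05G0031 to Gh_A05G2846 aligned with Gh_D05G0086 to Gh_D05G3147 in the same direction, with a score of 707 and 2582 gene pairs. Most of the later part of A04 matched D04: Gh_A04G0591 to Gh_A04G1282 aligned with Gh_D04G1052 to Gh_D04G1909 in the same direction, with a score of 100.3 and 666 pairs.

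The next 3 segments by score crossed the chromosome numbers and ran in the opposite direction. Gh_A05G3009 to Gh_A05G3603 aligned with Gh_D04G0639 down to Gh_D04G0003, at a score of 94.4 with 536 pairs, so the end of A05 before its scaffold genes matched the start of D04 turned round. Gh_A04G0011 to Gh_A04G0145 aligned with Gh_D05G3719 down to Gh_D05G3579, at 66.4 with 126 pairs, and Gh_A04G0284 to Gh_A04G0368 with Gh_D05G3370 down to Gh_D05G3277, at 52.0 with 82 pairs. Parts of the start of A04 thus matched parts of the end of D05, also turned round. The other 2 kept segments, A04 with D04 and A04 with D05, were also reversed and scored 34.5 and 34.4, just over the limit, and the best ones left out 31.3 and 31.2. Both were made mostly of unexpressed genes and both fell where a stronger segment already lay on A04 or D04. They are counted with the others in the numbers of windows and genes given next and are not described further.

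**Figure D4:**
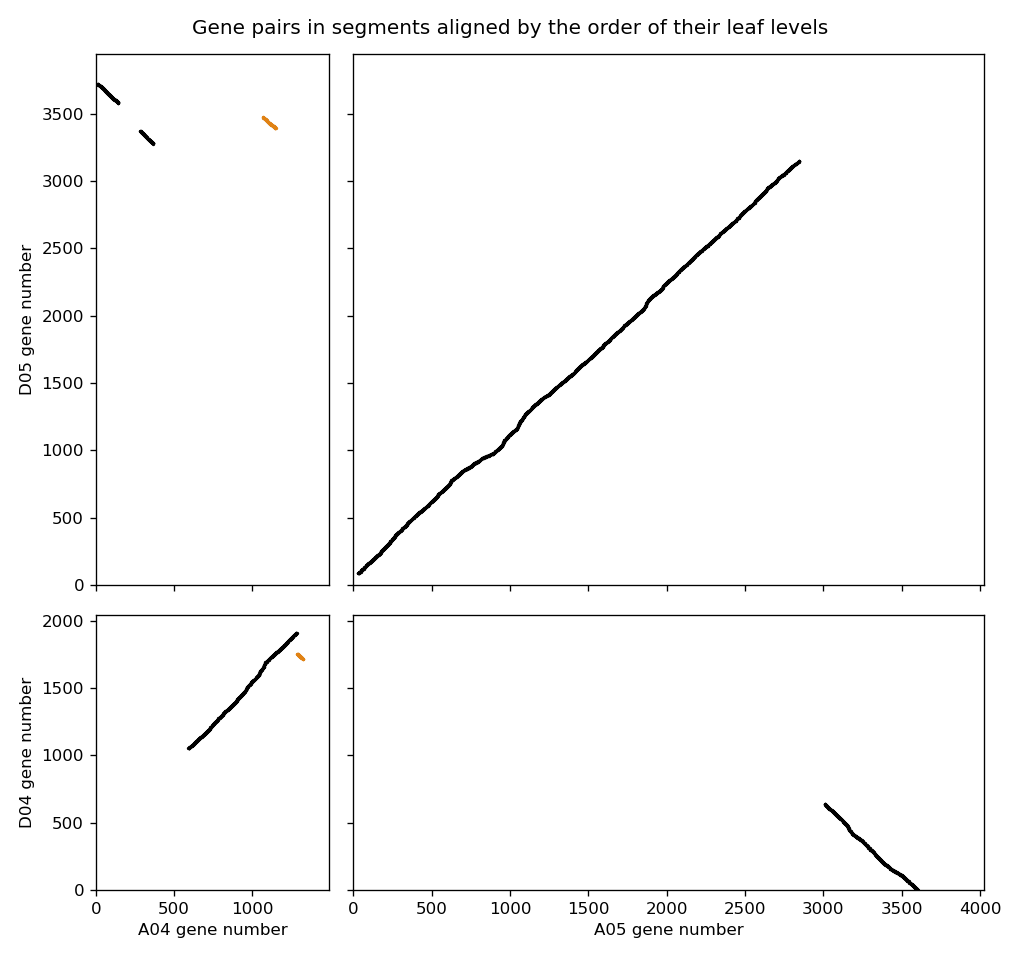
Gene pairs in the kept segments, by gene number on A04 and A05 (horizontal) and on D04 and D05 (vertical). Black points belong to the 5 segments that scored 52.0 or more and orange points to the 2 just over the limit, at 34.5 and 34.4. Rising lines run in the same direction on both chromosomes (A05 with D05, A04 with D04) and falling lines in opposite directions (A05 with D04, A04 with D05 and the short orange line of A04 with D04).

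Of 41 windows on A05, 28 had at least 50% of their genes aligned to D05, 6 to D04 and 7 to neither. Of 15 windows on A04, 7 were aligned to D04, 2 to D05 and 6 to neither, and without replicate 2 those aligned to D05 were 4. By genes, 64.1% of A05 was aligned to D05 and 13.3% to D04, and 47.1% of A04 to D04 and 14.2% to D05. The change on A05 from D05 to D04 fell between Gh_A05G2846 and Gh_A05G3009, in 162 genes that no segment covered. That on A04 from D05 to D04 fell between Gh_A04G0368 and Gh_A04G0591, in 222 genes. On D04 412 genes from Gh_D04G0640 to Gh_D04G1051 were without a segment, and on D05 129 genes from Gh_D05G3148 to Gh_D05G3276. The method was checked on A02, whose listed homeologs were not used for the scores. Its 2 best segments, with D02 and D03, scored 280.2 and 185.2. The crossed segments above scored lower, at 94.4, 66.4 and 52.0, so the A02 shares may not hold for them. There the segment with D02 placed 387 of 503 genes, 76.9%, on their listed partner and 482, 95.8%, within 5 genes of it, and the reversed segment with D03 placed 58 of 65, 89.2%, on theirs. On A01, from which the scores were learned, the best segment with D01 placed 57.2% on their partner and 69.7% within 5 genes. A reversed A01 segment with a score of 46.3 placed 59.2% and 63.2% so. For one in the same direction with a score of 34.9 the shares were 66.2% and 86.2%. Weak A02 segments varied. That with D03 in the same direction, with a score of 35.1, placed 53 of 68, 77.9%, on their partner. The reversed segment with D02, with a score of 33.3, placed 0 of 31 on theirs. The result depended on the gap cost, which was settled after several had been tried on these chromosomes. At a cost of 1 in place of 2, A05 with D05 was the sole segment kept and the crossed matches were lost. At a cost of 3 all 4 combinations were again found but 26 windows in place of 43 were aligned, among them 2 of A04 and 1 of A05 to D04.

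The top bin took in genes from an FPKM of 20.3 upwards, and the alignment did not use their height within it. Its scores did favour pairing genes of that bin with each other, so the pairs below are not independent of it. Of the 5 highest genes of each chromosome, 20 in all, 13 lay in an aligned pair, and for 10 of these the partner was itself among the 5 highest of its chromosome, which makes 5 pairs. How often other pairs would reach this was not worked out. Of the 5 highest genes of A04, Gh_A04G0863 alone had a partner. Gh_A05G1564, with FPKM of 3157, 3179.8 and 3588 in replicates 1, 2 and 3, was paired with Gh_D05G1742, with 3818, 3895 and 4450.3. Partners were matched by level and are not known homeologs, so which member of a pair was the higher is not read from these values. Gh_A05G1261, at 3603, 3539 and 4738, was paired with Gh_D05G1429, at 3339.7, 3359.7 and 4327. Gh_A05G2108, at a mean FPKM of 2203.5 ± 286 (SD, n = 3), was paired with Gh_D05G2361, at 2370.3 ± 285.

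Of the 5 pairs 1 crossed the chromosome numbers. Gh_A05G3293, with FPKM of 2004, 2027 and 2361, was paired with Gh_D04G0311, the highest gene of D04, with 1838, 1884 and 2181. On A04 the highest gene, Gh_A04G0863 at 1283, 1307 and 1600.2, was paired with Gh_D04G1363 at 853, 858 and 929.5. A pairing of unlike height was that of Gh_D04G1170, at a mean FPKM of 733 ± 166, with Gh_A04G0705, at 46.9 ± 3.9. The highest genes without a partner included Gh_A05G3843, a scaffold gene at 2480.6 ± 370.2, Gh_D05G1244 at 2443 ± 388 and Gh_A04G0428 at 1191 ± 324. Over pairs with both members in the top bin, Spearman's rho between A and D levels was 0.66 for the A05 and D05 segment (255 pairs), 0.59 for A04 with D04 (72 pairs) and 0.37 for A05 with D04 (33 pairs). The points share libraries and their order along the chromosome, and rho is given as a description.

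Within the 5 stronger segments the D side listed more genes than the A side, and its expressed share was the lower. For A05 with D05 the spans were 2816 genes, of which 64.2% had a mean FPKM of at least 1, and 3062 genes, 63.4%. For A04 with D04 they were 692 genes, 61.1%, and 858 genes, 57.5%. For the reversed segment of A05 with D04 they were 595 genes, 60.8%, and 637 genes, 56.5%, with 362 and 360 expressed genes. In the first crossed segment of A04 with D05, 54.8% of 135 and 51.8% of 141 genes were expressed, and in the second 42.4% of 85 and 35.1% of 94. Segments were chosen for like levels, so these values are given side by side and are not tested.

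Transcription factors (TFs) bind DNA and set the transcription of other genes, and the study listed those whose homeologs differed in leaf, on these same libraries, so that their being expressed is not independent evidence. The list holds 9 A-biased TFs on A04, 23 on A05, 10 D-biased TFs on D04 and 22 on D05, between 4.90 and 6.04 per 1000 genes, and all had a mean FPKM of at least 1. The rate over all chromosomes is not given here, so these counts are not read as high or low. Their median FPKM was 6.39 on A04, 5.12 on A05, 7.78 on D04 and 6.75 on D05. The highest on D05 was Gh_D05G0379 of the Tify family, which in Arabidopsis includes the JAZ repressors of jasmonate signalling, with FPKM of 188, 186 and 219 in replicates 1, 2 and 3. It was followed by the C2H2 zinc finger genes Gh_D05G1782, at 44.5, 41.7 and 52.7, and Gh_D05G2208, at 23.1, 25.1 and 22.8. On A05 the highest were Gh_A05G0346, a C3H zinc finger gene, at 75.1, 72.1 and 78.8, and Gh_A05G0082 of the YABBY family, which acts in the lower side of developing leaves in Arabidopsis, at 57.9, 59.6 and 73.7. Below them came the bZIP gene Gh_A05G1751, at 29.5, 34.1 and 28.2.

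On A04 Gh_A04G0879 led with FPKM of 44.7, 44.0 and 47.5. It belongs to the GARP-G2-like family, named for a regulator of chloroplast development in maize. Far below it came the WRKY gene Gh_A04G1269, of a family known for defence, at 9.20, 9.70 and 9.32, and Gh_A04G1120 at 9.38, 9.47 and 9.26. The latter belongs to the TCP family, which controls leaf growth, and directly follows the run of 15 unexpressed genes that ends at Gh_A04G1119. On D04 the highest were the TCP gene Gh_D04G0387, at 19.6, 18.9 and 19.3, the NAC gene Gh_D04G0293, at 11.0, 11.4 and 12.8, and the Alfin-like gene Gh_D04G1270, at 10.8, 8.88 and 9.97. The TFs of D04 thus stayed in a narrow range, from a mean FPKM of 2.44 to 19.3, while those of D05 ran from 1.27 to 198.

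**Figure D5:**
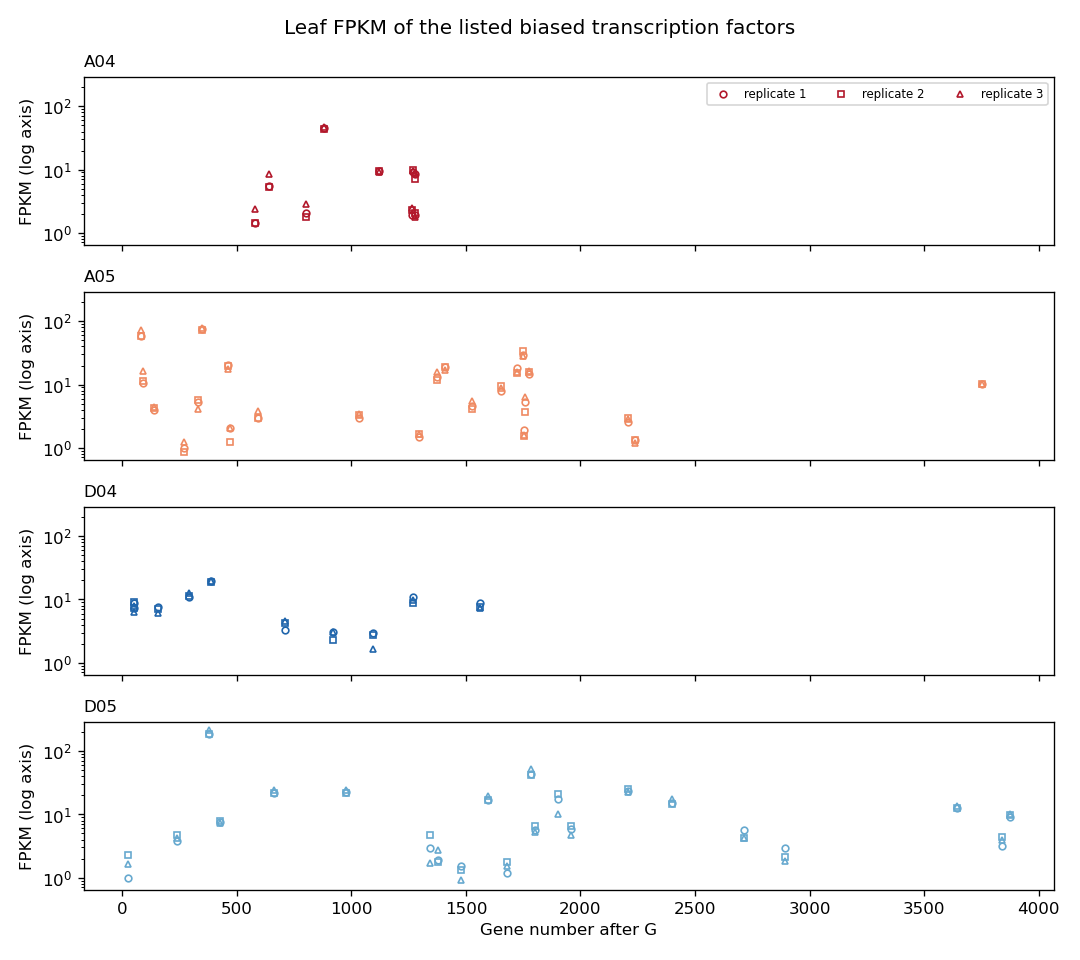
FPKM (log axis) of the listed A-biased TFs on A04 and A05 and D-biased TFs on D04 and D05, by gene number. Each TF has 3 points, 1 per library. The highest is Gh_D05G0379, between 186 and 219, and 1 TF of A05 and 5 of D05 lie beyond gene number 2400.

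Some of the listed TFs stood close together. On A05 5 of 23, from the MYB, bZIP, bHLH, HSF and WRKY families, stood between Gh_A05G1721 and Gh_A05G1774, in a window in which 52% of genes were expressed. Their mean FPKM were 16.3, 30.6, 1.68, 5.12 and 15.7 in that order. On A04 4 of 9 stood between Gh_A04G1266 and Gh_A04G1278, from the SBP, WRKY, C2C2-Dof and GARP-G2-like families. On D04 a NAC and a bZIP gene were neighbours, Gh_D04G0050 and Gh_D04G0051, with mean FPKM of 7.65 ± 1.4 and 8.04 ± 0.79. On D05 the closest TFs were 18 genes apart. These groups were picked after their positions were seen. In the poor windows of D05, from Gh_D05G3201 to Gh_D05G3600, no TF of the list was found. With 5.58 listed TFs per 1000 genes on D05, few would lie in so short a stretch, and nothing is read from this.

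The leaf-related blue module of the study, a group of biased genes with a common profile over cotton tissues, chosen with leaf values in view, had 7 genes on A04, 31 on A05, 15 on D04 and 31 on D05. The share of the module over all chromosomes is not given here, so these counts too are not read as high or low. All of these genes had a mean FPKM of at least 1, as their choice would favour. Their median FPKM was 36.3 on A04, 18.0 on A05, 18.9 on D04 and 15.8 on D05, against a median of 1.76, 2.70, 1.79 and 2.33 over the genes of these chromosomes. The highest were Gh_A05G3949 on A05 with a mean FPKM of 1212, Gh_D04G1924 on D04 with 371, Gh_D05G2212 on D05 with 182 and Gh_A04G0420 on A04 with 114. Of the biased TFs, Gh_A04G0879, Gh_A04G1120, Gh_A05G0082, Gh_D05G1782 and Gh_D05G2208 named above were also in the module.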

How the data were processed

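Leaves of TM-1 were analysed in 3 RNA-seq libraries. The authors trimmed reads with fastp, mapped them to the TM-1 genome with Hisat2 and computed with StringTie the deposited FPKM values, 1 per gene and library; the versions are not given in the sources used here. The files hold no read counts, so no count test was used and the read totals that the study lists are not repeated here. Values were not rescaled. Subgenome, chromosome and order were read from the identifiers, whose numbers run without gaps. A gene was called expressed at FPKM of 1 or more, levels were log2(FPKM + 1), and A and D were compared within libraries by an exact sign-flip test. Windows held 100 genes. Level order was aligned by a local alignment with 8 bins and a gap cost of 2, fixed after costs from 0.7 to 3 had been tried on these chromosomes. Scripts were tested on simulated data and run with Python (3.11.15) and its packages numba (0.67.0), pandas (2.3.3), numpy (2.4.6) and matplotlib (3.10.9).

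The members and lists were chosen with earlier results of these data known. Lists give memberships only. The homeolog lists at hand hold no pair of chromosomes 04 and 05 and were not used for them, and the H3K4me3 cluster list holds Cluster 1 genes of the A subgenome. Named genes were the 5 of highest mean FPKM on each chromosome, the ends of its longest unexpressed run and of its highest and lowest window, and its 3 highest biased TFs. Alternatives covered the FPKM threshold, the pseudocount, filters, rescaling, window size, scaffold genes, gap cost, bins and leaving out each library. None of the identifiers matched the RefSeq gene table (0 matches), so no gene names and no sequences are given.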

Additional observations from a re-analysis of the deposited data

How the results depend on the processing

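The A minus D differences in share and level kept their direction under all alternatives run; the share difference ranged from 1.91 to 2.52 percentage points and the level difference from 0.0078 (expressed genes alone) to 0.14 (pseudocount 0.1). Counts at fixed lines moved more. The share of windows under 50% expressed went from 14.3% to 3.57% in the A pair and from 18.0% to 9.84% in the D pair at an FPKM of 0.5 or more, to 35.7% and 36.1% at 2 or more, and to 0% in both at any FPKM above 0. Windows of 200 genes gave 3.45% in the A pair. Leaving out each library gave 8.93% to 12.5% in the A pair (the lowest without replicate 3) and 16.4% to 19.7% in the D pair. Unexpressed runs of 10 or more genes in the A pair numbered 4 at an FPKM of 0.5, 11 at 2 and 1 above 0, in place of 7, and in the D pair 4 above 0, in place of 13. Aligned A windows numbered 26 in place of 43 at a gap cost of 3, 39 at 1, where all were on D05, 39 with 5 bins, and 43 to 45 without each library in turn, with all 4 chromosome combinations found each time. The causes were not tested. By chromosome the aligned windows moved more than their total: A04 on D04 numbered 2 and A05 on D04 1 at a gap cost of 3, in place of 7 and 6, where 14 segments in place of 7 were kept, and A04 on D05 numbered 4 in place of 2 without replicate 2. No paired analysis was possible because there is a single group of samples, other than that the A minus D differences were taken within each library.

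The precision of low FPKM cannot be stated without read counts per gene, and a gene listed at 0 is not shown to be silent. Gene numbers are ranks, not distances, and the end of the placed genes on D04 and D05 was not known. Levels of close homeologs depend on how reads common to both were assigned.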

Other observations

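The expressed genes of these chromosomes varied little between the libraries. Of 6887 genes with a mean FPKM of at least 1, the median coefficient of variation was 12.5%, and 419, 6.08%, differed by more than 2-fold between the lowest and the highest library, close to the 6.37% of all expressed genes of the series. Of the 11499 genes, 632, 5.50%, were at an FPKM of at least 1 in some libraries and under it in others. Spearman's rho between libraries over these genes, which share their annotation, was 0.98 to 0.99.

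A gene was more often expressed where the gene before it was expressed. On D05 the gene after an expressed gene was itself expressed in 65.5% of cases and the gene after an unexpressed one in 51.4%. The values were 66.9% and 56.4% on A05, 60.8% and 50.1% on A04, and 60.0% and 52.6% on D04, against 64.6% and 54.0% on the other 22 chromosomes. The longest runs of expressed genes had 17 genes on A05, from Gh_A05G3781 to Gh_A05G3797, all scaffold genes whose order is not known, 15 on D05, 14 on D04 and 11 on A04.

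The study grouped genes of both subgenomes by the shape of their H3K4me3 signal, a histone mark found at transcribed genes, and the Cluster 1 of the A subgenome, with a broad signal around the promoter, held 136 genes of A04 and 377 of A05. Of these 66.7% ± 3.0 (SD, n = 3) and 76.3% ± 2.0 had an FPKM of at least 1, against 54.7% ± 0.97 and 61.4% ± 0.77 of the other genes of A04 and A05. Those other genes mix the remaining clusters with genes outside the clustering, so the broad shape cannot be told apart from the mark itself. For the Cluster 1 genes the following values were found. Their median FPKM was 3.50 on A04 and 3.88 on A05, against 1.69 and 2.58 for the other genes, and 15 and 22 Cluster 1 genes were listed at 0 in all libraries. The chromatin data themselves were not analysed here.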
